A study of Mus musculus with 16 samples.

Results

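The immediate-early genes described here are the 10 gene symbols *Fos*, *Fosb*, *Junb*, *Egr1*, *Ier2*, *Ier3*, *Nr4a1*, *Dusp1*, *Zfp36* and *Btg2*, chosen by name as genes that respond to cell dissociation and sorting. They are 10 of the 22609 gene symbols counted. RNA-seq was run on TdTomato-positive sensory neurons of 4 kinds of ganglion, with 4 libraries each and 16 in all. These were trigeminal ganglia (TG), nodose and jugular ganglia (NG/JG), lumbar L3-L5 dorsal root ganglia (DRG) and T10-L1 DRG. The animals were naive C57BL/6J mice of 8 to 12 weeks, labelled male, that carried *Pirt*-cre and the Rosa26-LSL-tdTomato allele in all 4 groups, so the red label marks cells in which the sensory neuron gene *Pirt* has driven Cre. Ganglia were digested with enzymes to single cells and sorted by fluorescence in 2 cycles before RNA was taken. Every library went through these steps and the series has no undissociated or unsorted tissue, so the part of dissociation and sorting in the levels below was not tested. The labels do not say how many animals each library holds or that replicates came from separate animals, and p-values then measure only the spread between these libraries.

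Immediate-early genes are transcribed within minutes of a stimulus, without new protein synthesis, when kinases such as ERK and p38 act on factors already bound at their promoters, among them SRF with its ternary complex partners at CArG boxes and CREB at cAMP response elements (CREs). Their products are mostly transcription factors that switch on later genes, together with inhibitors that end the response, such as phosphatases and proteins that speed mRNA decay. In sensory ganglia they are known to respond to noxious stimulation, axon injury and inflammation, and they are also known to be induced by tissue digestion at warm temperature, in glia and other cells as well as in neurons.

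The sequences through which such signals act lie close to the start of these genes, and the promoters of 5 members are shown as examples, those with a full CRE, with more than 1 CRE core or with a CArG box. RefSeq windows (build GRCm38.p6) were found for 8 of the 10 members, and *Egr1* and *Ier2* had no entry. Each line gives the 250 bases upstream of the annotated start, 5′ to 3′ on the strand of the gene. Capitals mark matches to the CRE (TGACGTCA), to its core (TGACG, which also lies inside each full CRE, or CGTCA where the match is on the other strand), to the CArG box or to the TATA box (TATAAA).
Fos (chr12:85473640-85473889, plus strand): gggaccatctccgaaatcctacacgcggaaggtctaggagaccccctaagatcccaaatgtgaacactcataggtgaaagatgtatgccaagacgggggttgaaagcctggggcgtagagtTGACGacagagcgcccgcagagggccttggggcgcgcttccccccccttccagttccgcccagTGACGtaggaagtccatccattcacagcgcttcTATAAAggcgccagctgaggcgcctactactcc
Nr4a1 (chr15:101266596-101266845, plus strand): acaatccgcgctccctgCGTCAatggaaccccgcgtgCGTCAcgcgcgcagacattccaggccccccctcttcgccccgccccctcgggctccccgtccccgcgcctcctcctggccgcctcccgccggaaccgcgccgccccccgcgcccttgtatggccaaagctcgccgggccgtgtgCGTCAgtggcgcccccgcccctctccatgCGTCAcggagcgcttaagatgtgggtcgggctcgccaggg
Dusp1 (chr17:26508473-26508722, minus strand): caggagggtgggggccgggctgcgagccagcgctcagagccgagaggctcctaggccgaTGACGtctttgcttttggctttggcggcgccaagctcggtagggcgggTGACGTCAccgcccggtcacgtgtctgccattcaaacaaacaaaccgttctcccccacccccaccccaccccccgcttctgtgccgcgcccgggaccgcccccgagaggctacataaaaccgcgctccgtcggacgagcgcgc
Zfp36 (chr7:28379229-28379478, minus strand): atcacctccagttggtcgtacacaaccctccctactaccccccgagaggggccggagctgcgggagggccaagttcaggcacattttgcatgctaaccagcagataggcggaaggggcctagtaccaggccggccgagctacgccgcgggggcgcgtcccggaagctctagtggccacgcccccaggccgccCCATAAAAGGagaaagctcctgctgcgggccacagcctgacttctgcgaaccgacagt
Btg2 (chr1:134079156-134079405, minus strand): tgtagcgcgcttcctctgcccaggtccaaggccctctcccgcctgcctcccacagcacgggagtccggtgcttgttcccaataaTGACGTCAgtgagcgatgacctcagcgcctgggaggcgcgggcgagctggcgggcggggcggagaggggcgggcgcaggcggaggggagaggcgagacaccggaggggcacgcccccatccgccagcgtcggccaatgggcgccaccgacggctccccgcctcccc

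Both strands of windows of 250 bases upstream and 50 bases downstream were searched, for the 8 members and for all 32851 RefSeq windows. A full CRE stood in 2 of the 8 member windows, *Dusp1* from base -143 and *Btg2* from base -166, and in 1.79% of all windows. The CRE core was in 6 of 8 member windows and 20.8% of all, with 4 matches in *Nr4a1*, all on the other strand, at -233, -213, -69 and -40. *Fos* had the core at -129 and -66 and a TATA box at -33. *Fosb* had 1 core match at -60, and *Junb* had one at -106. The CArG box of *Zfp36* at -58 was the only one in the 8 member windows, against 1.63% of all windows. *Egr1*, *Ier2* and sequence farther than 250 bases upstream were not searched, so boxes there would not be seen. TATAAA was in 2 of 8 member windows and 13.6% of all, and the *Junb* match began at base 1, at the annotated start and not upstream of it. Downstream parts of the *Junb* and *Btg2* windows were not found in a GENCODE transcript, so their distances rest on the RefSeq start alone. No member window held an AP-1 site (TGACTCA or TGAGTCA, in 5.20% of all windows) or the EGR site GCGTGGGCG (0.612%), and the *Ier3* window held none of the 6 motifs. These are matches of letters, not sites shown to be bound.

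**Figure D1:**
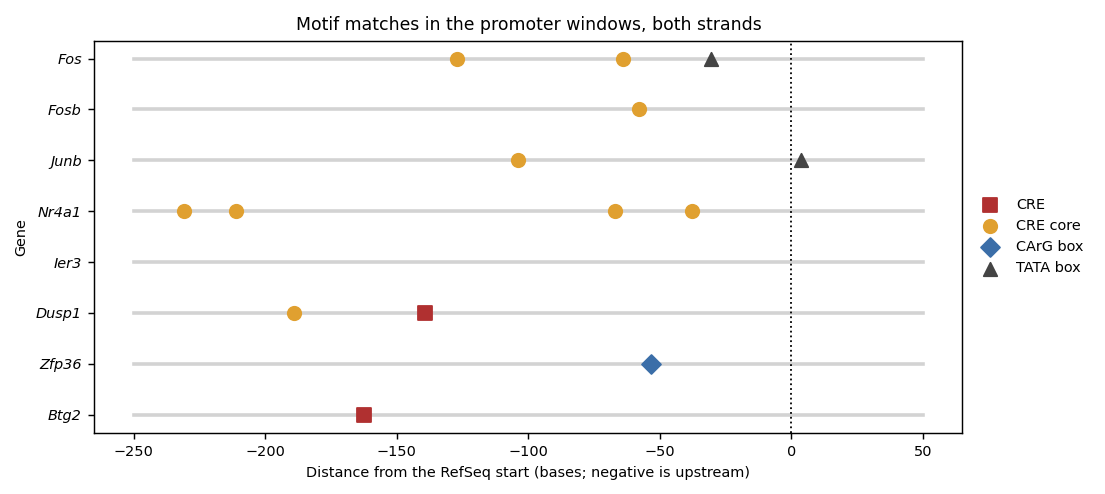
Position of each motif match in the promoter windows of the 8 members with a RefSeq entry, as distance from the start in bases (x axis), with 1 line per gene (y axis). Full CREs stand in *Dusp1* and *Btg2*, 4 CRE cores in *Nr4a1*, a CArG box in *Zfp36*, and no match in *Ier3*.

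Libraries had 4735624 to 13333318 reads on genes (median 8332661), and values are given as CPM, counts scaled to 1000000 reads on genes. The lowest count of any member in any library was 459 reads, so counting error was small beside the spread between libraries. Although labelled male, every library had between 1279 and 8362 reads on *Xist* and 0 on 10 chromosome Y genes. *Pirt* was detected in every library, from 16.8 to 308 CPM. *Isl1*, 1 of 12 sensory neuron markers, had only 1 read in its lowest TG library. Each of the 12 markers exceeded the floor of 3 counts in at least 1 library of every ganglion. Their summed level, not corrected for length, was 2278 to 15495 CPM in L3-L5 DRG, 1451 to 5166 in TG, 2126 to 7182 in NG/JG and 2937 to 5814 in T10-L1 DRG. Over the 16 libraries 7 satellite glia markers summed to 13158 to 64533 CPM and 6 Schwann cell markers to 8180.3 to 54339 CPM. Both sums exceeded that of the neuron markers in every library other than L3-L5 DRG library 3, where neuron markers exceeded both (15495 CPM), and library 2, where they exceeded the Schwann cell sum (12893 against 8358 CPM). Markers of the labelled cell type were thus present together with many reads on glial markers, and which cells the immediate-early transcripts came from was not tested. In RNA from pooled cells, fewer cells that express a gene and less RNA per cell cannot be told apart.

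Together the 10 genes took between 0.257% (L3-L5 DRG library 3) and 4.24% (NG/JG library 4) of the reads on genes, with a median of 1.71%. The median share was 2.73% in NG/JG, 2.11% in T10-L1 DRG, 0.997% in TG and 0.805% in L3-L5 DRG. *Fos* was the member with most reads in every library, and it was the second most read of all genes in T10-L1 DRG library 2 and in NG/JG library 4. In L3-L5 DRG library 3 it ranked 67. Per length of annotated exon, *Fos* also stood first in 16 of 16 libraries, at a mean of 3244 ± 1948 RPKM (SD, n = 16). *Junb*, *Egr1* and *Nr4a1* followed at 937 ± 562, 932 ± 799 and 855 ± 493 RPKM, which did not differ beyond their spread. *Zfp36* was at 602 ± 342 RPKM. *Btg2*, *Ier2* and *Dusp1* lay close together at 292 ± 173, 288 ± 177 and 256 ± 157 RPKM. *Ier3* (197 ± 86.2 RPKM) and *Fosb* (125 ± 103 RPKM) were lowest, and *Fosb* was last in 12 libraries and *Ier3* in the other 4.

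**Figure D2:**
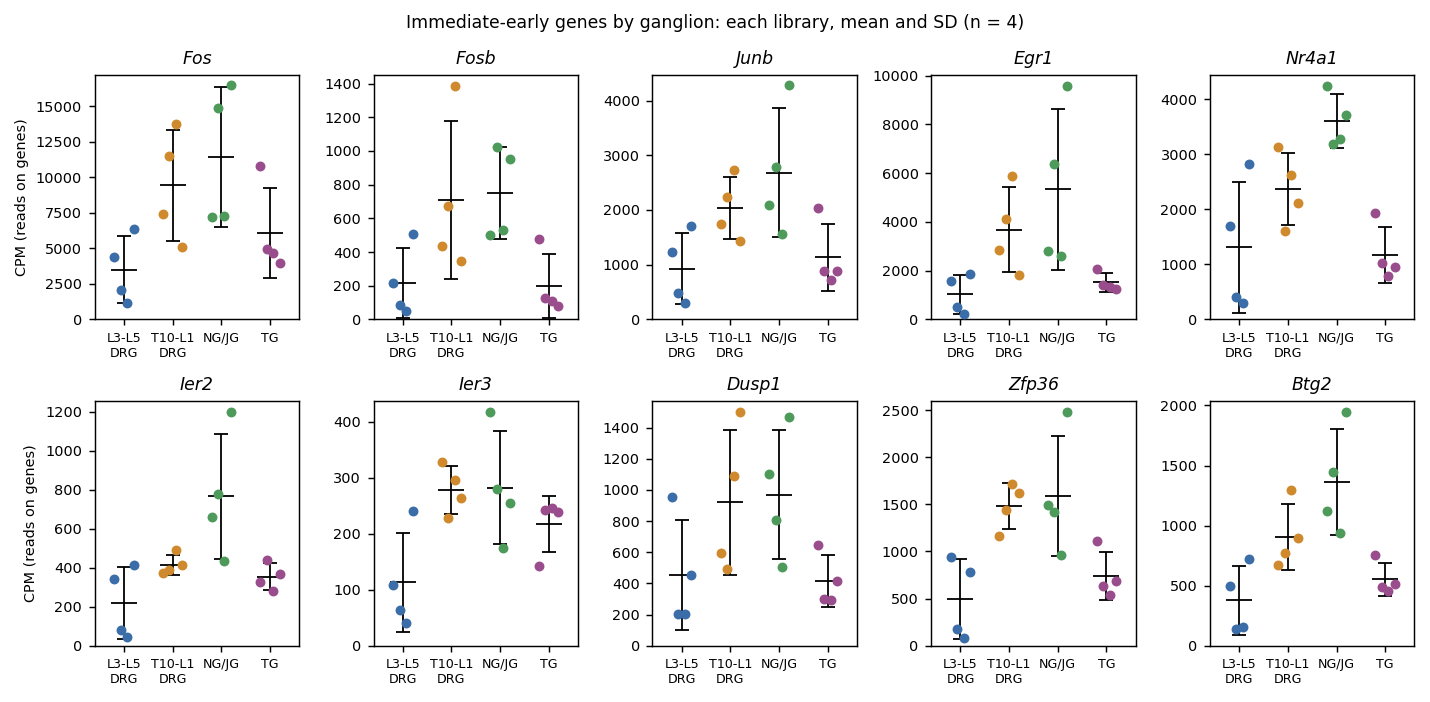
CPM of each member (y axis, linear, from 0) in the 4 libraries of each ganglion (points, in replicate order from left to right), with the mean and SD (black). L3-L5 DRG libraries 2 and 3 are at the bottom of most panels, TG library 1 stands above the other TG libraries for *Fos*, *Fosb* and *Junb*, and the NG/JG points of *Nr4a1* lie above all other points.

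The first 3 members encode subunits of AP-1, a dimer of a Fos and a Jun protein that binds DNA at TPA response elements. *Fos* lies on chromosome 12 (86814840 to 86818223, plus strand, here and below in mm9 coordinates of GENCODE M1). It had 4368, 2058, 1167 and 6395 CPM in L3-L5 DRG libraries 1 to 4 and 7407, 11524, 13763 and 5126 in T10-L1 DRG. In NG/JG it had 7184, 14887, 7283 and 16483 CPM, and in TG 10824, 4950.0, 4663 and 3999.8. The 4 NG/JG values lay above all 4 of L3-L5 DRG, whereas T10-L1 DRG overlapped every other ganglion, and 1 TG library was high while the other 3 were close together. Means were 11459 ± 4923 CPM in NG/JG, 9455 ± 3906 in T10-L1 DRG, 6109 ± 3169 in TG and 3497 ± 2356 in L3-L5 DRG (SD, n = 4 each).

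*Fosb*, a paralog of *Fos* whose truncated splice form accumulates under repeated stimulation, lies on chromosome 7 (19888070 to 19895394, minus strand). It had 214, 85.9, 48.2 and 506 CPM in L3-L5 DRG libraries 1 to 4 and 437, 673, 1385 and 347 in T10-L1 DRG. It had 503, 1021, 530.4 and 950.4 CPM in NG/JG and 479.8, 124, 112 and 80.6 in TG. NG/JG lay above TG without overlap, and TG library 1 was nearly level with the lowest NG/JG library while the other TG libraries were far below, and the means ran from 199 ± 188 CPM in TG to 751 ± 272 CPM in NG/JG (SD, n = 4). Its levels spanned 28.7-fold over the 16 libraries, against 14.1-fold for *Fos*. The deposited counts are per gene and do not separate the splice forms.

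*Junb*, a Jun protein that partners Fos and can oppose c-Jun, lies on chromosome 8 (87500811 to 87502617, minus strand). It had 1239, 479.8, 295 and 1698 CPM in L3-L5 DRG and 1739, 2238, 2723 and 1430.4 in T10-L1 DRG. In NG/JG it had 2090.0, 2790.0, 1569 and 4275 CPM, and in TG 2037, 889, 715 and 883. Every pair of ganglia overlapped, L3-L5 DRG libraries 2 and 3 were lowest and NG/JG library 4 was highest, and the means ran from 928 ± 656 CPM in L3-L5 DRG to 2681 ± 1174 CPM in NG/JG (SD, n = 4).

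*Egr1* and *Nr4a1* encode transcription factors outside AP-1. *Egr1*, a zinc finger factor that binds GC-rich sites, had 1557, 489.9, 233 and 1862 CPM in L3-L5 DRG and 2862, 4108, 5889 and 1833 in T10-L1 DRG. It had 2805, 6359, 2589 and 9577 CPM in NG/JG and 2072, 1404, 1346 and 1236 in TG. NG/JG lay above both L3-L5 DRG and TG without overlap, and the 4 TG values were close together, and the means ran from 1035 ± 795 CPM in L3-L5 DRG to 5333 ± 3316 CPM in NG/JG (SD, n = 4). Of all members *Egr1* had the widest range, 41.2-fold from L3-L5 DRG library 3 to NG/JG library 4. It is annotated over a short overlap of 0.258% of its exon length with another gene, *Gm17507*, on the other strand, and whether strand was used in counting is not given in the sources used here.

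*Nr4a1*, the orphan nuclear receptor Nur77, lies on chromosome 15 (101097277 to 101105223, plus strand). It had 1703, 410.0, 304 and 2820.1 CPM in L3-L5 DRG and 3125, 1609.5, 2633 and 2119 in T10-L1 DRG. In NG/JG it had 4244, 3184, 3278 and 3720.2 CPM, and in TG 1931, 1018, 786 and 961. Every NG/JG library exceeded the other 12, and the means ran from 1174 ± 514 CPM in TG to 3606 ± 485 CPM in NG/JG (SD, n = 4). The NG/JG values spanned 1.33-fold, the narrowest range of *Nr4a1* in any ganglion, and those of L3-L5 DRG 9.27-fold.

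*Ier2* encodes a small nuclear protein and lies on chromosome 8 (87185230 to 87186751, minus strand). It had 339.8, 78.6, 42.4 and 414 CPM in L3-L5 DRG and 371, 386, 489 and 413 in T10-L1 DRG. It had 659, 778, 433 and 1197 CPM in NG/JG and 325, 441, 281 and 369 in TG. NG/JG lay above L3-L5 DRG, whose libraries 2 and 3 were far below every other library, while T10-L1 DRG and TG overlapped over a narrow range, and the means ran from 219 ± 186 CPM in L3-L5 DRG to 767 ± 321 CPM in NG/JG (SD, n = 4).

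*Ier3*, a stress-induced gene that affects survival and ERK signalling, lies on chromosome 17 (35958629 to 35959868, plus strand). It had 108, 63.3, 41.2 and 240.1 CPM in L3-L5 DRG and 328, 228, 296 and 264 in T10-L1 DRG. It had 418, 281, 175 and 255 CPM in NG/JG and 143, 243, 247 and 239 in TG. The highest *Ier3* value was in NG/JG library 1 and not in library 4, and TG library 1, highest of its ganglion for most members, was the lowest TG library for *Ier3*, and the means ran from 113 ± 89.1 CPM in L3-L5 DRG to 282 ± 101 CPM in NG/JG (SD, n = 4).

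The last 3 members end the response. *Dusp1*, a phosphatase that inactivates p38, JNK and ERK, lies on chromosome 17 (26642535 to 26645464, minus strand). It had 955, 202, 206 and 455 CPM in L3-L5 DRG and 592, 494, 1090.5 and 1501 in T10-L1 DRG. It had 1100.5, 805, 502 and 1469 CPM in NG/JG and 649, 297, 296 and 414 in TG. Every pair of ganglia overlapped, and *Dusp1* was highest in T10-L1 DRG library 4, which had the lowest *Fos* of its ganglion, and the means ran from 414 ± 166 CPM in TG to 969 ± 413 CPM in NG/JG (SD, n = 4).

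*Zfp36*, or tristetraprolin, binds AU-rich elements and directs mRNAs to decay, and lies on chromosome 7 (29161803 to 29164274, minus strand). It had 942, 180.2, 85.3 and 781 CPM in L3-L5 DRG and 1167, 1438, 1715 and 1623 in T10-L1 DRG. It had 1495, 1423, 966 and 2479 CPM in NG/JG and 1114, 638, 539.7 and 685 in TG. T10-L1 DRG was above both L3-L5 DRG and TG without overlap, and NG/JG was above L3-L5 DRG, and the means ran from 497 ± 428 CPM in L3-L5 DRG to 1591 ± 637 CPM in NG/JG (SD, n = 4).

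*Btg2*, an antiproliferative factor that recruits the CCR4-NOT deadenylase, lies on chromosome 1 (135971747 to 135975697, minus strand). It had 496, 137, 152 and 723 CPM in L3-L5 DRG and 669, 772, 1293 and 894 in T10-L1 DRG. It had 1119, 1450.2, 935 and 1946 CPM in NG/JG and 752, 488, 458 and 509.8 in TG. Its 4 NG/JG values lay above those of L3-L5 DRG and of TG, and the means ran from 377 ± 284 CPM in L3-L5 DRG to 1363 ± 444 CPM in NG/JG (SD, n = 4).

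T10-L1 and L3-L5 DRG neurons were compared because they supply different targets, the viscera and the limb. All 10 members had higher fitted levels in T10-L1 DRG, by 0.94 (*Nr4a1*) to 1.89 (*Egr1*) on the log2 scale with a median of 1.36, a fold of 2.57, while 48.6% of all 13550 genes tested were in that direction and their median was -0.02. By the quasi-likelihood test of edgeR 0 members and 0% of all genes reached an adjusted p below 0.05, and by DESeq2 0 members and 0.488% of genes did. At an unadjusted p under 0.05, 7 of 10 members passed in edgeR, all of them higher in T10-L1 DRG, against 6.07% of all genes and 2.78% in that direction. In DESeq2 7 members passed, and the share of all genes in that tool is not given here. *Egr1* showed a log2 difference of 1.89 (SE 0.65, adjusted p = 0.79, edgeR), *Fosb* 1.81 (SE 0.72) and *Zfp36* 1.67 (SE 0.66), both with adjusted p = 0.79, and *Fos* was 2.82-fold higher on average. *Ier2* (1.01, SE 0.62), *Nr4a1* (0.94, SE 0.65) and *Dusp1* (1.12, SE 0.58) missed the unadjusted threshold. *Zfp36* was the only member without overlap between the ganglia, against 1.53% of all genes in that direction. The count of 7 became 1 without L3-L5 DRG library 2 (3.45% of all genes), 4 without L3-L5 DRG library 3 (3.38%) and 2 without T10-L1 DRG library 3 (3.94%). L3-L5 DRG libraries 2 and 3 had summed sensory neuron markers of 12893 and 15495 CPM, above the 5022 and 2278 CPM of libraries 1 and 4. All 12 of these markers had a log2 fold change below 0 in T10-L1 over L3-L5 DRG, with a median of -1.03, and 1 had an unadjusted p under 0.05. Markers of macrophages (8 of 8 tested, median 1.42), neutrophils (8 of 8, 1.15), mural cells (6 of 6, 0.88) and fibroblasts (6 of 6, 0.87) were above 0, with 0 at an unadjusted p under 0.05. Summed macrophage markers were 14589 CPM in T10-L1 DRG library 4 and 726 to 956 CPM in the others. In L3-L5 DRG they were 6214 CPM in library 1 and 66.6 to 721 CPM in the others. The part of these cell types in the immediate-early result was not tested.

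NG/JG, which hold visceral afferents of the vagus, were compared with L3-L5 DRG, and this comparison had the largest median difference of the 6. The members were higher in NG/JG by 1.26 (*Dusp1*) to 2.55 (*Egr1*) on the log2 scale, with a median of 1.87, a fold of 3.65, in a direction shared by 50.4% of the 12240 genes tested. No member reached an adjusted p below 0.05 by edgeR (0% of all genes) or by DESeq2 (4.82%). At an unadjusted p under 0.05, 9 of 10 passed in both tools, all higher in NG/JG, against 6.04% of all genes and 2.35% in that direction in edgeR. The share of all genes in DESeq2 is not given here. *Egr1* (log2 2.55, SE 0.73, adjusted p = 0.274) and *Btg2* (2.02, SE 0.58, adjusted p = 0.275) had the lowest p, and *Dusp1* missed the unadjusted threshold. In *Fos*, *Egr1*, *Ier2*, *Nr4a1*, *Zfp36* and *Btg2*, 6 of 10 members, all 4 NG/JG libraries lay above all 4 L3-L5 DRG libraries, which held for 1.59% of all genes. Without NG/JG library 4 the count of 9 was 5, against 9.19% of all genes. Summed sensory neuron markers overlapped between these ganglia, and 10 of the 12 had a log2 fold change below 0, with a median of -0.65 and 2 at an unadjusted p under 0.05. Satellite glia markers were above 0 in 7 of 7 (median 0.69, 2 at an unadjusted p under 0.05) and heat-shock chaperones in 12 of 12 (median 1.15, 6 at that p), whereas fibroblast markers were below 0 in 6 of 6 (median -0.51). Their part in the result was not tested.

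Between NG/JG and T10-L1 DRG the differences were smaller. All 10 fitted log2 fold changes were above 0, from 0.09 (*Ier3*) to 0.99 (*Ier2*), with a median of 0.45, against 51.1% of all 12430 genes above 0. No member reached an adjusted p below 0.05 by edgeR (0.0322% of all genes) or by DESeq2 (6.14%). At an unadjusted p under 0.05, *Ier2* (log2 0.99, SE 0.36, adjusted p = 0.55 in edgeR) and *Nr4a1* (0.69, SE 0.28, adjusted p = 0.711) passed, 2 of 10 against 5.91% of all genes and 1.85% in that direction. In DESeq2 1 member passed, against 10.9% of all genes. *Nr4a1* was the member without overlap, against 1.63% of all genes. The count of 2 was 0 without NG/JG library 4 (10.8% of all genes) or T10-L1 DRG library 2 (4.57%). It was 1 without NG/JG library 1 (15.3%), T10-L1 DRG library 1 (5.83%) or T10-L1 DRG library 4 (4.27%). The fitted log2 fold change of *Ier3*, *Fosb*, *Dusp1* or *Zfp36* was below 0 in some of these fits. The 4 genes called in edgeR were cell type markers lower in NG/JG, *S100a9* and *Ngp* of neutrophils and *Rgs5* and *Acta2* of mural cells. *S100a9* and *Rgs5* never exceeded 3 counts in NG/JG. Neutrophil and macrophage markers were each below 0 in 8 of 8. Fibroblast markers were below 0 in 6 of 6 (median -1.45) and mural cell markers in 5 of 5 tested (-1.04). Sensory neuron markers were above 0 in 10 of 12 (median 0.17). Their part in the result was not tested.

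TG, which supply the head and face, had lower levels than NG/JG for all 10 members. Log2 fold changes of TG over NG/JG ran from -1.81 (*Fosb*) to -0.17 (*Ier3*), with a median of -1.12, and 51.4% of all 11769 genes were below 0. By edgeR 0 members reached an adjusted p below 0.05, against 0.051% of genes. DESeq2 called *Nr4a1* (log2 fold change -1.55, adjusted p = 0.0259), where 6.39% of all genes passed. At an unadjusted p under 0.05, 8 of 10 members passed in edgeR, all lower in TG, against 10% of all genes and 4.49% in that direction. In DESeq2 5 members passed, against 14% of all genes. *Nr4a1* differed by -1.47 (SE 0.35, adjusted p = 0.146, edgeR), *Egr1* by -1.70 (SE 0.48, adjusted p = 0.182) and *Fosb* by -1.81 (SE 0.56, adjusted p = 0.212). In *Fosb*, *Egr1*, *Nr4a1* and *Btg2*, 4 of 10, all TG libraries lay below all NG/JG libraries, as in 4.49% of all genes. The count of 8 was 4 without NG/JG library 4 (13.5% of all genes) or TG library 3 (6.35%). It was 5 without TG library 2 (6.37%) or TG library 4 (6.60%). Without TG library 1, *Fosb* (log2 fold change -2.61, adjusted p = 0.0207 in edgeR) and *Nr4a1* (-1.74, adjusted p = 0.02) passed, where 2.58% of all genes did. In the same comparison macrophage markers were above 0 in 8 of 8 (median 1.99, 1 at an unadjusted p under 0.05) and Schwann cell markers in 5 of 6 (median 0.95, 2 at that p). Sensory neuron markers were below 0 in 9 of 12 (median -0.28, 1 at that p) and heat-shock chaperones in 10 of 12 (median -1.24, 5 at that p). Their part in the difference was not tested.

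Against T10-L1 DRG, 8 of 10 members had lower fitted levels in TG, as did 51.2% of all genes, and *Ier2* and *Ier3* had log2 fold changes of 0.14 and 0.03, a direction of 48.8% of genes, and both were below 0 when only library size was used for scaling. That scaling moved the median of all genes by -0.35 in this comparison. The median of the members was -0.60. By edgeR 0 members reached an adjusted p below 0.05, against 5.87% of the 12914 genes, and by DESeq2 0 against 15%. In edgeR 21.6% of all genes passed an unadjusted p under 0.05, and 8.77% did so lower in TG. The share in DESeq2 is not given here. At that threshold 3 members passed in both tools. These were *Fosb* (log2 -1.55, SE 0.60, adjusted p = 0.158), *Egr1* (-0.93, SE 0.38, adjusted p = 0.187) and *Zfp36* (-0.67, SE 0.30, adjusted p = 0.222), the last without overlap, as in 13.2% of all genes. Without TG library 1, 4 members passed the adjusted p in edgeR, where 26.7% of all genes did. These were *Fosb* (log2 fold change -2.33, adjusted p = 0.00616), *Zfp36* (-0.84, adjusted p = 0.0232), *Nr4a1* (-0.95, adjusted p = 0.0299) and *Junb* (-0.87, adjusted p = 0.0324). In that fit 6 members had an unadjusted p under 0.05, against 38.4% of all genes. The unadjusted count was 0 without T10-L1 DRG library 3, TG library 2, TG library 3 or TG library 4, where 16.4% to 17.5% of all genes passed. Of the cell type markers, *Mbp* and *Egfl8* of Schwann cells were higher in TG with an adjusted p below 0.05 in edgeR. *Cdh19* of satellite glia, *Ngp*, *Camp* and *Ltf* of neutrophils, *Rgs5* of mural cells and *Col3a1* of fibroblasts were lower at that threshold. That threshold was passed by 5.87% of all genes, and the part of these cell types in the result was not tested. TG library 1 had the lowest sensory neuron marker sum of all libraries, 1451 CPM, and the highest Schwann cell marker sum, 54339 CPM, and their part in its immediate-early levels was not tested.

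Over L3-L5 DRG, TG had log2 fold changes of 0.21 (*Nr4a1* and *Fosb*) to 1.37 (*Ier3*) with a median of 0.93, against 49.1% of all 12900 genes above 0. With library size only, *Fosb*, *Nr4a1* and *Dusp1* were below 0, and the median of all genes moved by -0.36. No member reached an adjusted p below 0.05 by edgeR (0% of all genes) or by DESeq2 (11.3%). *Ier3* alone had an unadjusted p under 0.05 in edgeR (log2 1.37, SE 0.53, adjusted p = 0.2), 1 of 10 against 18.2% of all genes and 10.1% higher in TG. In DESeq2 2 members passed, against 17.2% of all genes. The edgeR count was 0 without any of L3-L5 DRG libraries 1 to 3 or TG libraries 2 to 4, where 13.3% to 16.6% of all genes passed. It was 4, against 17.7% of all genes, without L3-L5 DRG library 4, in which 66.6% of uniquely aligned reads fell outside genes. Of the 12 sensory neuron markers, 11 were below 0 in TG over L3-L5 DRG, with a median of -0.94, and their part was not tested either.

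**Figure D3:**
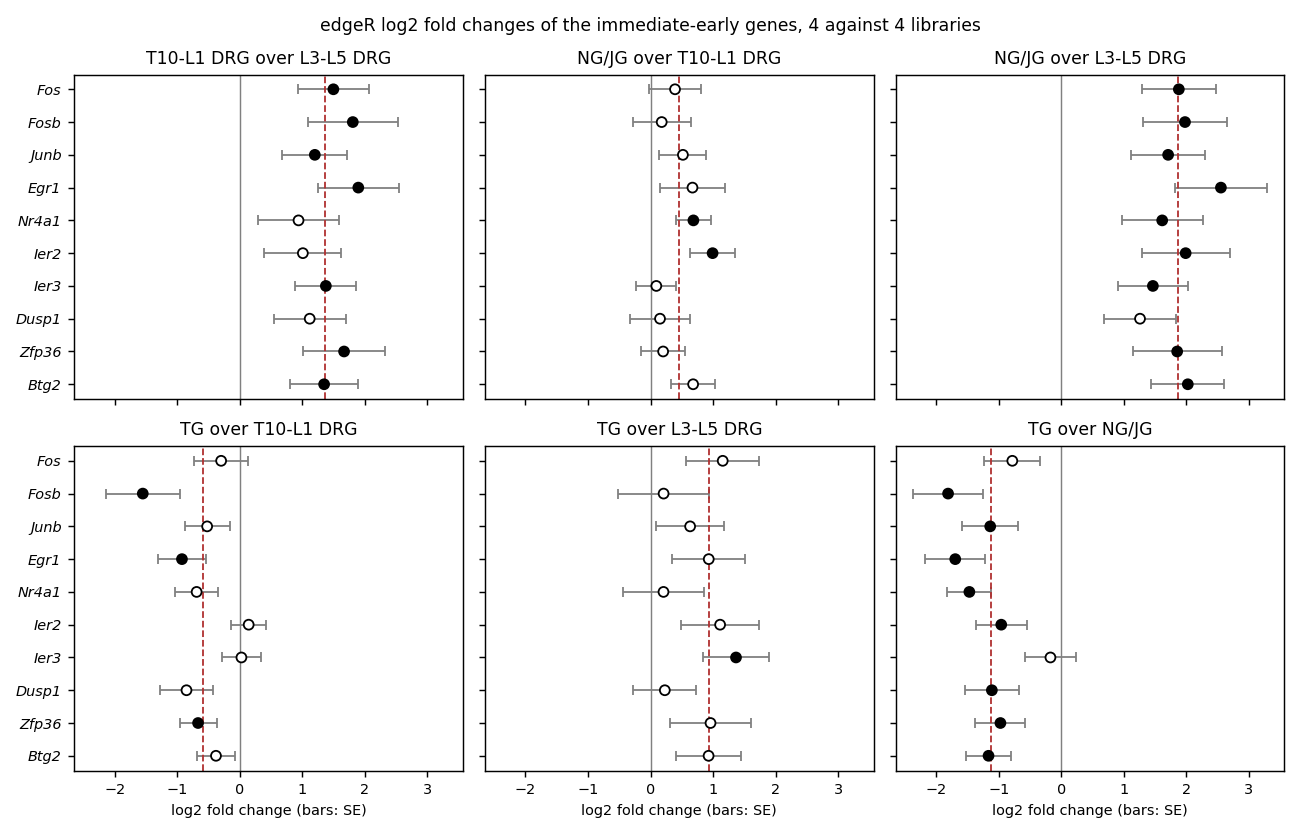
Fitted log2 fold change (x axis) of each member (y axis) with its standard error in the 6 comparisons of ganglia, 4 libraries against 4. Filled points have an unadjusted p under 0.05 in edgeR and the dashed line is the median of the 10 members, which runs from -1.12 in TG over NG/JG to 1.87 in NG/JG over L3-L5 DRG.

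A joint test asked whether a gene differed anywhere among the 4 ganglia, on all 16 libraries. By the F test of edgeR 0 members reached an adjusted p below 0.05, against 3.01% of 14236 genes, and 9 of 10 had an unadjusted p under 0.05, against 17.5% of genes. *Egr1* (adjusted p = 0.0606 in edgeR) and *Btg2* (adjusted p = 0.0833) were nearest, and *Dusp1* was the member that missed the unadjusted threshold (adjusted p = 0.324). The likelihood-ratio test of DESeq2 called both *Egr1* (adjusted p = 0.00885) and *Btg2* (adjusted p = 0.0177), where 12.7% of genes passed. With 1 library left out, edgeR called *Egr1*, *Btg2* and *Ier3* without L3-L5 DRG library 4, where 2.94% of genes passed. It called *Egr1* without NG/JG library 1 (3.97% of genes) or NG/JG library 3 (3.39%), and *Egr1* and *Fosb* without TG library 1 (6.98%).

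The members moved together from library to library. Over the 16 libraries the 45 pairs of members had Pearson r of log2(CPM + 1) from 0.58 (*Ier3* with *Dusp1*) to 0.97 (*Fos* with *Egr1*), with a median of 0.87. After subtraction of the ganglion means the range was 0.38 to 0.96, with a median of 0.81. These values are descriptions, since the libraries share depth, preparation and cell makeup. *Junb* (0.98) and *Btg2* (0.98) were closest to the mean of the other 9 members, and *Dusp1* (0.81) and *Ier3* (0.78) were farthest. L3-L5 DRG library 3 was the lowest library for 8 members and L3-L5 DRG library 2 for the other 2, *Dusp1* and *Btg2*. NG/JG library 4 was highest for 6 members, NG/JG library 1 for *Ier3* and *Nr4a1*, and T10-L1 DRG libraries 3 and 4 for *Fosb* and *Dusp1*. The members' SD of log2(CPM + 1) over the 16 libraries had a median of 1.09, from 0.88 (*Ier3*) to 1.46 (*Fosb*). The median over 11831 genes with a mean of at least 5 CPM was 1.46. The lowest member mean was 223 CPM (*Ier3*), so the 2 medians are not matched for level.

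**Figure D4:**
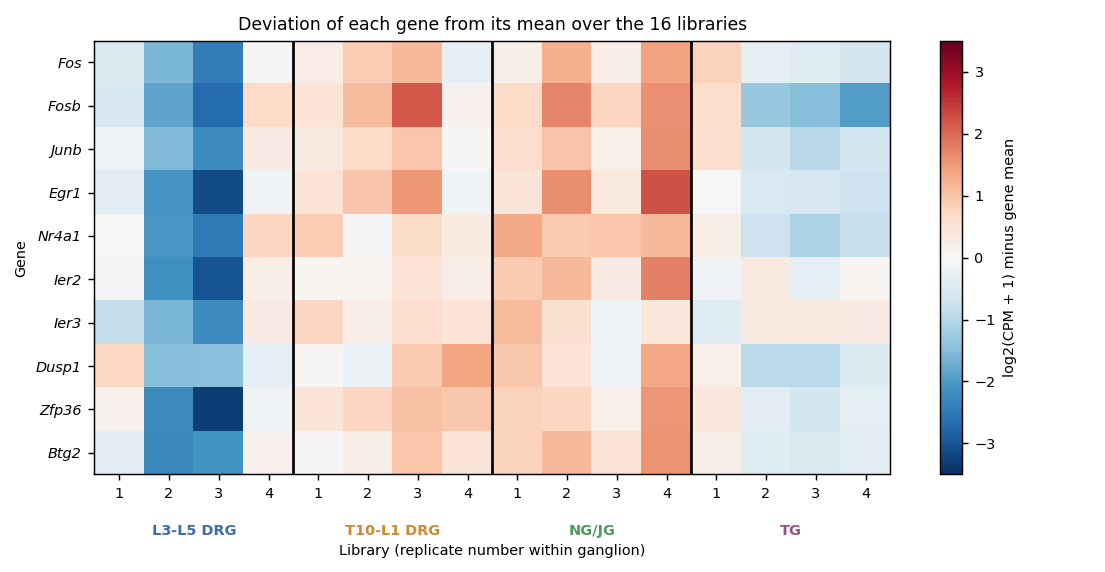
Colour gives each member's log2(CPM + 1) in a library minus its mean over the 16 libraries, with genes in rows and libraries in columns by ganglion. L3-L5 DRG libraries 2 and 3 are low for all 10 members, while NG/JG library 4 is above the mean for all 10.

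*Fos* gave 33.0% to 53.3% of the reads on members (median 43.3%), *Egr1* 9.04% to 22.6% and *Nr4a1* 6.86% to 19.6%. *Ier3* never exceeded 2.61%. The ratio of *Fos* to *Fosb* reads was higher in TG, at 22.6, 39.9, 41.8 and 49.6 in libraries 1 to 4, than in T10-L1 DRG (9.94 to 17.1) and NG/JG (13.7 to 17.3), without overlap. In L3-L5 DRG it was 12.6 to 24.2, which overlapped TG. This ratio was chosen after its values were seen, among 5 ratios computed, and was not tested.

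Other genes of the same program were read from 7 lists. Their counts in T10-L1 over L3-L5 DRG stand against 48.6% of all genes above 0, 6.07% with an unadjusted p under 0.05 and 2.78% with one and higher in T10-L1 DRG. In TG over T10-L1 DRG they stand against 21.6% with an unadjusted p under 0.05, 8.77% with one and lower in TG, and 5.87% with an adjusted one. Among 8 other AP-1 subunits, all 8 had a log2 fold change above 0 in T10-L1 over L3-L5 DRG, 7 with an unadjusted p under 0.05 in edgeR and 0 with an adjusted one. Their median was 1.95, or 1.79 with *Fosl1* at its bound, since *Fosl1* had 0 reads in all 4 L3-L5 DRG libraries against 1.2 to 1.43 CPM in the 4 T10-L1 DRG libraries. That is at least 3.56-fold higher when L3-L5 DRG is set to a floor of 3 counts per library. *Fosl2* had 22.8 ± 20.3 CPM in L3-L5 DRG and 95.3 ± 40.3 CPM in T10-L1 DRG (SD, n = 4). *Atf3*, a stress-induced partner of Jun, had 361 ± 204 and 2098 ± 1265 CPM, and *Jund* showed a log2 difference of 1.18 (SE 0.39, adjusted p = 0.79, edgeR). In TG over NG/JG 2 of the 6 subunits tested had an unadjusted p under 0.05, both lower in TG, against 4.49% of all genes, and *Fosl2* was one of them (log2 -3.30, SE 0.72, adjusted p = 0.121, edgeR).

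Among 4 other Egr and Nr4a factors that could be tested, of 5 listed, all had a log2 fold change above 0 in T10-L1 over L3-L5 DRG, with a median of 1.02, and *Nr4a3* had an unadjusted p under 0.05 (log2 1.87, SE 0.80, adjusted p = 0.79, edgeR). *Egr2* had 1.12 (SE 0.58), *Nr4a2* 0.92 (SE 0.51) and *Egr3* 0.28 (SE 0.76). The 19 other early response genes were all above 0 as well, 8 with an unadjusted p under 0.05, with a median of 1.28. In TG over T10-L1 DRG 16 of these 19 genes were below 0, against 51.2% of all genes, and 9 had an unadjusted p under 0.05, against 8.77% lower in TG. *Ctgf*, a secreted relative of *Cyr61*, was the 1 gene of this list that passed an adjusted p, where 5.87% of all genes did, a share near that of the list. It fell by 2.13 on the log2 scale in TG (standard error 0.55, adjusted p = 0.0493 in edgeR), from 59.9 ± 31.7 CPM in T10-L1 DRG to 10.8 ± 1.02 CPM (SD, n = 4).

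The 16 other feedback genes, among them inhibitors of MAPK, cytokine and NF-kB signalling, were close to the members in one comparison and not in another. In T10-L1 over L3-L5 DRG all 16 were above 0 with a median of 1.28 and 6 had an unadjusted p under 0.05. *Socs3*, an inhibitor of cytokine receptors, had 451 ± 263 CPM in L3-L5 DRG and 1478 ± 612 CPM in T10-L1 DRG (SD, n = 4), and *Ppp1r15a*, *Gadd45g* and *Spry2* had log2 fold changes of 1.56, 1.24 and 1.32. In TG over NG/JG, however, 9 were above 0 and 7 below, with a median of 0.09, while the 10 members were all below 0. The difference between the lists was not tested.

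Not every list related to activity or stress followed the members in every comparison. The 7 activity-regulated neuronal genes tested had a median of -0.71 in T10-L1 over L3-L5 DRG, with 2 above 0 and 5 below. *Arc*, a synaptic effector gene, had a log2 fold change of 1.37 (SE 0.50, adjusted p = 0.79 in edgeR), while *Nptx2* had -1.82 (SE 0.77), the neurotrophin gene *Bdnf* -1.08 (SE 0.57) and *Rheb*, an activator of mTOR, -0.43. By its median the activity-regulated list had the members' direction in NG/JG over T10-L1 DRG (7 of 7 above 0, 1.32) and NG/JG over L3-L5 DRG (5, 0.63). It also had that direction in TG over NG/JG (6 below 0, median -0.69) and TG over L3-L5 DRG (4 above 0, 0.49). In TG over T10-L1 DRG 5 were above 0 (median 0.96), whereas 8 of 10 members were below 0. The 20 genes of upstream signalling had a median of 0.04 in T10-L1 over L3-L5 DRG. In TG over T10-L1 DRG, *Mapk3* (ERK1) and *Map2k2* (MEK2), 2 of the 20 against 5.87% of all genes called, rose by 1.23 (standard error 0.24, adjusted p = 0.0272 in edgeR) and 1.41 (standard error 0.29, adjusted p = 0.0288) on the log2 scale. *Mapk3* had 195 ± 26.6 CPM in T10-L1 DRG and 352 ± 12.1 CPM in TG, and *Map2k2* 111 ± 15.5 and 228 ± 34.6 CPM (SD, n = 4). The 12 heat-shock chaperones had a median of 0.92 in T10-L1 over L3-L5 DRG, with 11 above 0 and 3 with an unadjusted p under 0.05, led by *Hspa1a* at 629 ± 232 CPM in L3-L5 DRG and 3297 ± 2874 CPM in T10-L1 DRG (SD, n = 4), and *Dnajb1*, *Hspa1b* and *Hspe1* had log2 fold changes of 1.77, 1.97 and 1.06.

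Across the 16 libraries, the mean log2(CPM + 1) of the members was set against log2(summed CPM + 1) of each list. Such a sum depends most on the most read genes of a list. The members' mean had r = 0.98 with the other feedback genes, 0.94 with other early response genes, 0.87 with other AP-1 subunits and 0.84 with other Egr and Nr4a factors. It had 0.43 with heat-shock chaperones and 0.09 with activity-regulated neuronal genes. After subtraction of the ganglion means these values were, in the same order, 0.98, 0.90, 0.77, 0.77, 0.17 and -0.38. With sensory neuron markers r was -0.57, and -0.70 after subtraction of the ganglion means. With fibroblast markers the values were 0.34 and 0.74, with Schwann cell markers 0.17 and 0.60, and with satellite glia markers 0.27 and 0.20. Before and after that subtraction r was 0.14 and 0.47 for macrophage markers, 0.31 and 0.36 for endothelial markers, 0.27 and 0.44 for mural cell markers, -0.12 and -0.03 for neutrophil markers and -0.51 and -0.31 for upstream signalling genes. With the share of reads outside genes r was 0.07 before and 0.33 after it, and with log2 of the depth -0.02 and -0.28. Fibroblast markers summed to 542 and 824 CPM in L3-L5 DRG libraries 3 and 2, against 6290.3 and 6671 CPM in libraries 1 and 4. The part of cell makeup in the immediate-early levels was not tested.

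**Figure D5:**
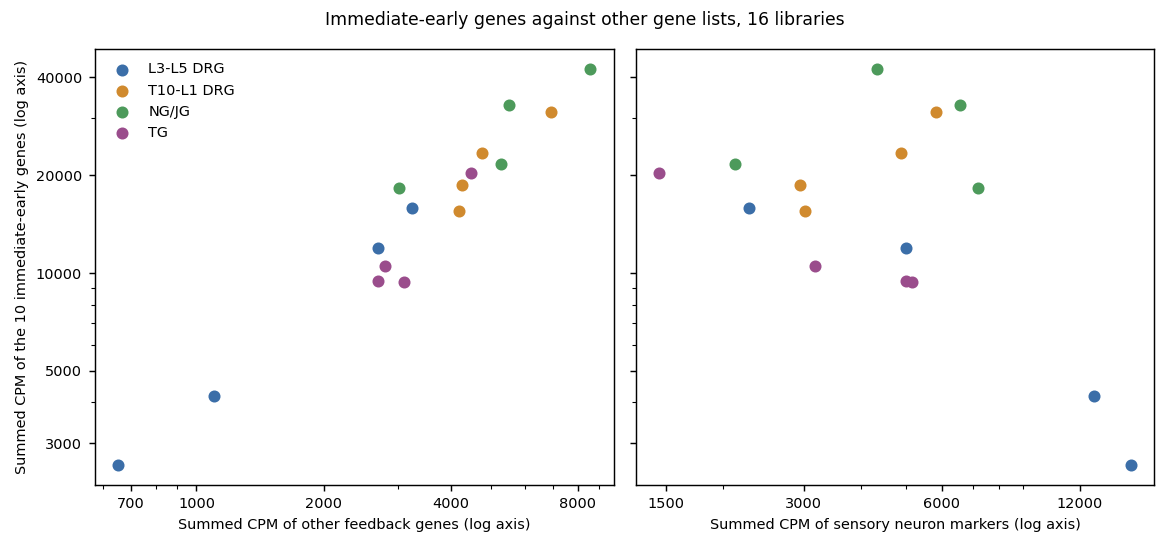
Summed CPM of the 10 members (y axis, log scale) against summed CPM of the 16 other feedback genes (left) and of the 12 sensory neuron markers (right, both x axes on a log scale), with 1 point per library coloured by ganglion. L3-L5 DRG libraries 2 and 3 have the lowest member sums, 4185 and 2574 CPM, and the highest neuron marker sums, 12893 and 15495 CPM.

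The genes whose pattern was most like that of the members were ranked by Pearson r with the members' mean log2(CPM + 1) over the 16 libraries, among 11821 other genes with a mean of at least 5 CPM. The median r of these genes was -0.12 and 14 exceeded 0.9. The 8 nearest were *Irgm1*, an immunity-related GTPase (0.95), *Sdc4*, a heparan sulphate proteoglycan (0.94), *Rarb*, a retinoic acid receptor (0.93), *Gas7* (0.92), *Cyr61* (0.92), *Sat1*, which acetylates polyamines (0.92), the death receptor gene *Fas* (0.92) and *Ccnl1*, cyclin L1 (0.92). *Irgm1* ranged from 7.91 to 1670 CPM and *Sdc4* from 248 to 3871 CPM. *Cyr61* was the only one of the 8 on a list used above.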

How the data were processed

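RNA-seq counts came from 16 libraries of sorted TdTomato-positive cells, 4 per ganglion, grouped by the tissue each label names. The authors aligned reads to mm9 with TopHat2 after bcl2fastq and deposited raw read counts per gene from HTSeq, with no normalization and no version listed in their processing notes. The annotation and the use of strand are not given in the sources used here. The 5 summary lines of each table were left out, and unique reads outside genes were 29.6% to 66.6% of unique reads. CPM divides by reads on genes, and RPKM uses exon lengths of GENCODE M1. Each pair of ganglia was tested two-sided on its 8 libraries with edgeR 4.0.16 (TMM factors, filterByExpr, quasi-likelihood test, Benjamini-Hochberg adjustment over all genes tested) in R 4.3.3, and 6 pairs and a joint test were run. DESeq2 1.42.0 and other scalings, a fit of all 16 libraries, no filter on low counts, a replicate block and each library left out were alternatives, and the code was tested on simulated data. Tables were made with Python 3.11.15, pandas 2.3.3 and numpy 2.4.6, and motifs were searched in RefSeq promoter windows (GRCm38.p6).

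The members, the lists of other genes and markers and the tests were chosen with earlier results of these data known. All 10 members were named, with the genes of a list that passed an adjusted p in any pair, or else up to 4 genes of the list with the lowest unadjusted p in T10-L1 over L3-L5 DRG, and the 8 genes nearest to the members' mean. For sensory neuron, macrophage and endothelial markers, of which none passed an adjusted p, list values were given in place of the 4 genes. Counting error alone sets a floor of 3 counts, or 0.225 to 0.633 CPM by library.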

Additional observations from a re-analysis of the deposited data

Results flagged for a closer look

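In TG, library 1 stood apart from the other 3 for 4 members, by a gap to its neighbour of 0.861 (*Fos*), 0.891 (*Fosb*), 0.868 (*Junb*) and 0.924 (*Ier3*) of the range of the 4 libraries, above the 95% critical value of Dixon's test. It was the highest for *Fos* (10824.5 CPM, with the others at 3999.8 to 4950.0 CPM), for *Fosb* (479.8 CPM, others 80.6 to 124 CPM) and for *Junb* (2037 CPM, others 715 to 889 CPM). It was the lowest for *Ier3* (142.7 CPM, others 239 to 247 CPM). These were 4 of 44 groups of 4 libraries examined, and chance alone marks about 1 group in 20. All 4 were of TG library 1 and the members moved together. The groups are thus not independent, and the count cannot be set against that rate.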

How the results depend on the processing

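In T10-L1 and in NG/JG over L3-L5 DRG, the fitted log2 fold changes of the 10 members kept their direction in all 80 values with 1 library left out (10 members in 8 fits) and all 60 values of the other alternatives, in each comparison. Counts moved more. With 1 library left out, members with an unadjusted p under 0.05 numbered 1 to 9 in T10-L1 over L3-L5 DRG, 0 to 3 in NG/JG over T10-L1 DRG, 5 to 10 in NG/JG over L3-L5 DRG, 0 to 6 in TG over T10-L1 DRG, 0 to 4 in TG over L3-L5 DRG and 4 to 8 in TG over NG/JG, and members with an adjusted one 0 to 4 in TG over T10-L1 DRG, 0 to 2 in TG over NG/JG and 0 to 3 among the 4 ganglia. Log2 fold changes that changed sign ran from -0.0166 to 0.74 (*Fosb*), -0.13 to 0.28 (*Ier3*), -0.18 to 0.57 (*Dusp1*) and -0.16 to 0.40 (*Zfp36*) in NG/JG over T10-L1 DRG, from -0.0313 to 0.23 (*Ier2*) and -0.0921 to 0.22 (*Ier3*) in TG over T10-L1 DRG, from -0.54 to 0.97 (*Fosb*), -0.12 to 0.75 (*Nr4a1*) and -0.0076 to 0.86 (*Dusp1*) in TG over L3-L5 DRG, and from -0.36 to 0.0125 (*Ier3*) in TG over NG/JG. Of the other alternatives, DESeq2 gave unadjusted counts of 1 in NG/JG over T10-L1 DRG (10.9% of all genes), 2 in TG over L3-L5 DRG (17.2%) and 5 in TG over NG/JG (14%). It called 1 member in TG over NG/JG (6.39% of all genes) and 2 among the 4 ganglia (12.7%). The fit of all 16 libraries gave unadjusted counts of 0 in NG/JG over T10-L1 DRG (12.1% of all genes) and 1 in TG over T10-L1 DRG (12.2%). It gave 2 in TG over L3-L5 DRG (12.5%) and 5 in TG over NG/JG (20.9%). Library size alone gave 6 in TG over T10-L1 DRG (22.5% of all genes), with *Ier2* at -0.23 and *Ier3* at -0.36. It gave 0 in TG over L3-L5 DRG (19.3% of all genes), with *Fosb* at -0.10, *Nr4a1* at -0.16 and *Dusp1* at -0.13. Without a filter the count in TG over T10-L1 DRG was 5 (16.7% of all genes), with *Ier2* at -0.0643 and *Ier3* at -0.19. In that setting 1 member was called in TG over NG/JG (*Nr4a1*, where 0.318% of all genes passed) and 1 among the 4 ganglia (*Egr1*, 1.18%). Replicate numbers were not taken to pair the samples, since no pair of ganglia had all 4 same-numbered correlations of deviations above 0.1 (range -0.11 to 0.22, with 3 of 4 above it for L3-L5 with T10-L1 DRG). The replicate block gave unadjusted counts of 4 in T10-L1 over L3-L5 DRG (5.64% of all genes) and 4 in TG over L3-L5 DRG (14.5%). It gave 1 in TG over T10-L1 DRG (19.2%), with *Ier3* at -0.0108. The cause of these shifts was not tested. Depth limited no member, since the lowest count was 459 reads.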
